A study of Drosophila melanogaster with 2 samples.

Results

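The Hippo pathway and Fat cadherin genes yki, sd, hpo, wts, ex, Mer, kibra, ft, ds and fj are 10 of the 13945 protein-coding genes annotated on the main chromosome arms of Drosophila melanogaster. They were taken by name, and a binding peak was counted for a gene when its summit lay in the gene body or within 5000 bp of it on the dm6 genome. Binding was that of the zinc-finger protein Sob, a relative of Odd-skipped, measured by chromatin immunoprecipitation and sequencing in whole embryos aged 0 to 24 h. The flies were of the sob-GFP strain, with an insertion targeting sob that expresses the protein fused to eGFP, and chromatin sheared by sonication to 200 to 800 bp was precipitated with an anti-GFP antibody. There was 1 group with 2 biological replicates and no second condition, so nothing could be compared between conditions, and whole embryos do not show in which cells a site was bound.

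The Hippo pathway is a kinase cascade that limits organ growth. The kinase Hippo (Hpo) activates the kinase Warts (Wts), which phosphorylates the co-activator Yorkie (Yki) and keeps it out of the nucleus, where it would otherwise act through the DNA-binding TEAD protein Scalloped (Sd). Expanded (Ex), Merlin (Mer) and Kibra assemble the kinases at the apical cortex, and the large cadherins Fat (Ft) and Dachsous (Ds), with the Golgi kinase Four-jointed (Fj) acting on their extracellular domains, feed into the same cascade and into planar polarity. Several of these genes, among them ex and fj, are themselves transcribed in response to Yki in imaginal discs.

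Every member had at least 1 Sob peak in its window, but the peaks fell into 3 arrangements. A peak stood within 1000 bp of the gene's own start site at 7 members, yki, sd, hpo, ex, Mer, ds and fj, as at 32.9% of protein-coding genes; wts and kibra were bound within their introns and not at their start sites; and ft had a peak upstream alone. The start-site count was 4 of 10 in replicate 1's own list (yki, hpo, Mer and ds), 5 in that of replicate 2 (yki, hpo, Mer, sd and ex) and 3 in the conservative list. The 32.9% is from the main list, and no share over all genes is given for these lists singly. In both own lists together, yki, hpo and Mer had a start-site peak, against 19.0% of protein-coding genes. The main list, which used both replicates, holds 7002 peaks, and 26 of them were assigned to the 10 genes. A shorter conservative list was also made from both replicates, and each replicate has a list of its own. A share of 61.0% of protein-coding genes had such a peak, and 75.9% of those with a body of at least 15000 bp, a length that 6 members reached. The median member body was 17235 bp, against 2166 bp over all protein-coding genes. The median number of peaks was 2 per member, 1 per protein-coding gene and 2 per protein-coding gene of at least 15000 bp. The member windows held 8.80 peaks per 100 kb, and the main arms 5.23. The latter is over the whole length of the arms, stretches between genes included, and no density was taken over all gene windows. No test was made on these counts.

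Peak strength is the signal that the authors' peak caller gave over a control, in units with no stated scale and with no error for a single peak. Over the 26 peaks it ran from 21.4 at yki to 440.1 at hpo, with a median of 153.3, against 133.4 over the main list. Of the 26, 15 were above that main-list median and 4, at hpo, Mer, wts and yki, exceeded 214.4, the upper quartile. No read counts accompany the lists, so their depth is unknown. The deposited −log10 q-value of a peak ran from 0.06 at the weakest yki peak to 3.27 at the strongest hpo peak. It was 1.05 and 0.97 at the only peaks of sd and fj, and 2.03 and 2.66 at those of ft and ds. The lists were cut by reproducibility and not by this value, so the counts of members above include sd and fj on such peaks.

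**Figure D1:**
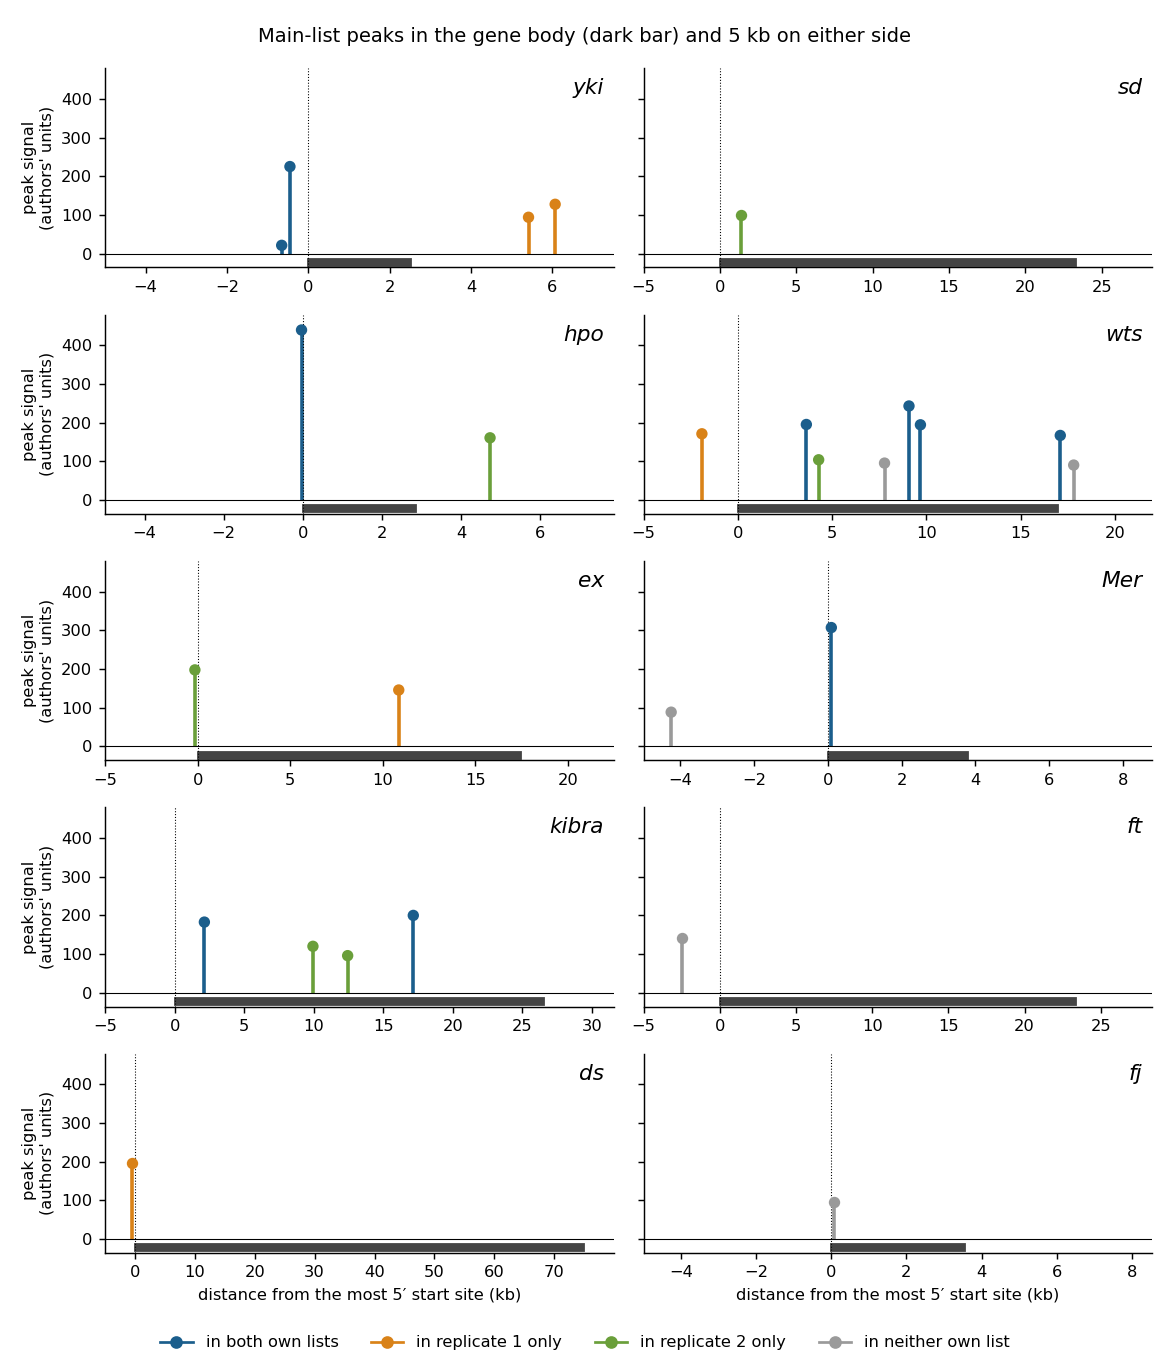
Main-list peaks of the 10 genes. Each panel shows 1 gene, with its body as a dark bar, the distance from its most 5′ start site in kb on the horizontal axis and peak signal in the authors' units on the vertical axis; colours give the replicates' own thresholded lists that hold an overlapping peak. The tallest peaks stand at the start sites of hpo (440.1) and Mer (307.4), while those of wts and kibra lie along the gene body.

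Of the nuclear effectors, yki had 4 peaks around it and sd 1. All 4 yki peaks were nearest to the start site of another gene. The strongest, with a signal of 225.4 (2R, 24068825 to 24068942), lay 454 bp upstream of the yki start site, within the 5′ untranslated region of a transcript of the divergent neighbour Gpat4 and 111 bp upstream of the nearest Gpat4 start site. A weak peak of 21.4 was next to it, also within Gpat4 and 92 bp downstream of the nearest start site of that gene. The remaining peaks, with signals of 94.1 and 127.7, were downstream of yki and stood 23 bp downstream of the nearest start site of Rap2l and 12 bp downstream of that of the ribosomal protein gene RpL39. In the replicates' own lists the 225.4 peak was present in both, at 129.7 in replicate 1 and 103.6 in replicate 2. The Rap2l and RpL39 peaks were in that of replicate 1, at 57.4 and 78.8, while replicate 2 had them in its unthresholded ranked list at 40.9 and 45.6. In both own lists the 21.4 peak overlapped the same peak as its stronger neighbour, so it was no separate peak there, and replicate 2's ranked list had a separate one of 24.4.

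At sd (X, 15804370 to 15827682, plus strand), which has 7 annotated start sites, the peak (15805558 to 15805937, signal 99.1) stood 241 bp downstream of the nearest of them, in a 5′ untranslated exon. It was 1378 bp downstream of the most 5′ start site. Replicate 2 had it in its own list at 73.6, while in replicate 1 it appeared in the ranked list alone, at 23.5. It was absent from the conservative list, and the rest of the 23313 bp body of sd held no main-list peak.

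The core kinase genes differed in where they were bound. At hpo (2R, 19493996 to 19496856, minus strand) the peak was at the start site, 34 bp upstream of it, and was the strongest of all members. Its signal of 440.1 put it at place 508 of the main list, and it was found in both replicates' own lists, with 247.5 in replicate 1 and 209.0 in replicate 2, at places 472 and 515. A further peak (160.9) lay 39 bp downstream of the nearest start site of the neighbouring gene Rep, with 102.5 in replicate 2's own list and 56.8 in the ranked list of replicate 1.

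The wts window held the most peaks, 8 in 26995 bp or 29.6 per 100 kb, although that of yki was denser at 32.0 per 100 kb. A number of 8 or more was reached by 0.717% of protein-coding genes of any length. No such share was taken among long genes, and the wts body has 16995 bp. Of the other pathway genes, msn with 11 peaks, hth with 10 and app with 8 also reached it. None of the 8 was within 1000 bp of the wts start site. In transcription order, 5 lay inside the gene body (3R, 30789625 to 30806619, minus strand), 2 in intron 1 and 3 in intron 2 of a transcript with 8 exons, between 3637 and 9688 bp downstream of the start site. Their signals were 195.4, 104.0, 95.4, 243.3 and 194.6. Upstream, a peak of 171.3 lay 95 bp before the start site of cindr, which encodes an adaptor protein, and beyond the 3′ end were peaks of 167.0 and 90.3, the latter in the 3′ untranslated region of the transcription factor gene zfh1. Each of the replicates' own lists held 5 peaks in this window. The peaks of 195.4, 243.3, 194.6 and 167.0 were in both.

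Neither replicate was the higher at all 4 of these sites. Replicate 1 had 90.8, 134.3, 117.1 and 73.0 in transcription order, and replicate 2 had 106.0, 112.5, 88.0 and 93.5. At the intronic peak of 104.0 they differed, with 89.9 in replicate 2's own list and 29.9 in the ranked list of replicate 1. The cindr peak was in replicate 1's own list at 84.4, and replicate 2 had 83.4 in its ranked list. The peaks of 95.4 and 90.3 were in neither own list, with 33.8 and 23.4 in the ranked list of replicate 1 and 60.1 and 63.7 in that of replicate 2. Among the 30 other protein-coding genes with 8 peaks in their windows, the 3 nearest to wts in highest signal were CG8312 at 246.8, Ptp10D at 248.1 and bbg at 248.3, against 243.3 at wts.

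The bases at the strongest intronic wts peak (chr3R:30797488-30797588), 101 bases centred on the summit, are shown because this was the most strongly bound site within a member's body away from its start site, and the most A and T rich of the 26 summits at 26.7% G and C. The peak of 104.0 in intron 1 (chr3R:30802279-30802379) is shown because it holds the letters of the Sd motif core. Both are on the plus strand of dm6 from RefSeq's copy of the genome, with capitals for the motifs searched for: CGATA and the reverse complement of CACACA in the former, and GGAATG and CACACA in the latter.
wts intron 2: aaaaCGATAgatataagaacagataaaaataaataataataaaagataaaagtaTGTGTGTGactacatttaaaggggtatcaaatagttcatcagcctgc
wts intron 1: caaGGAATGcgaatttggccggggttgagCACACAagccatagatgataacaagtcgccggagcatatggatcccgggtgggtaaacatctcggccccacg

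Of the upstream scaffold genes, Mer and ex carried a peak at their start sites and kibra did not. Merlin is the fly orthologue of the human NF2 tumour suppressor and, like Expanded, has a FERM domain. At Mer (X, 19689697 to 19693500, minus strand) the peak (19693276 to 19693465) stood 94 bp downstream of the start site, in intron 1, with a signal of 307.4. The replicates had 120.2 and 171.9 in their own lists, at places 1612 and 741. Upstream, a peak of 88.3 lay 4250 bp from the Mer start site and 659 bp downstream of the nearest start site of the small GTPase gene Cdc42, in neither own list, with 29.4 and 55.3 in the ranked lists of replicates 1 and 2.

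At ex (2L, 431227 to 448701, plus strand) each replicate's own list held 1 peak, and not the same peak. The start-site peak (430889 to 431268, signal 197.8) lay 148 bp upstream, with 173.8 at place 713 of replicate 2's own list, and with 34.6 at place 10496 of the ranked list of replicate 1. The ratio of replicate 2 to replicate 1 was 5.02, the highest of the 24 member peaks that both ranked lists hold. In intron 3, 10858 bp downstream, a peak of 145.7 had 92.9 in replicate 1's own list and 54.1 in the ranked list of replicate 2. The protein-coding start site nearest to that intronic peak was that of crq, 9217 bp away. The 101 bases at the start-site summit (chr2L:431029-431129, plus strand) are shown because ex is a reported Yki target and this site had that ratio. Capitals mark the reverse complement of CGATA, that of CACACA and that of GAGAG.
ex start site: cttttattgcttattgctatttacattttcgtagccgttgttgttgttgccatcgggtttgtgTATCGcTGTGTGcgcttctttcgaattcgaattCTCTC

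All 4 peaks of kibra (3R, 14697689 to 14724261, minus strand) lay in intron 1. They stood 2140, 9942, 12437 and 17154 bp downstream of the start site, with signals of 182.6, 119.9, 95.7 and 199.9. For the peak of 199.9 the nearest protein-coding start site was that of Meltrin, 9815 bp away. The outer peaks were in both own lists, with 91.0 in replicate 1 and 80.3 in replicate 2 at the former, and 109.5 and 103.4 at the latter. The inner peaks were in that of replicate 2 alone, at 85.5 and 71.9, and had 29.5 and 36.7 in the ranked list of replicate 1. Replicate 1 had a peak of 47.7 in the same intron, 9419 bp downstream of the start site, that overlapped no main-list peak; it was the 1 own-list peak of either replicate in the member windows for which this was so.

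The 101 bases at the kibra summit 9942 bp downstream (chr3R:14714269-14714369, plus strand) are shown because the letters of the Sd motif core lay 7 bp from the summit, the nearest of any member, and those at the summit 17154 bp downstream (chr3R:14707057-14707157) because this is the strongest kibra peak. Capitals mark GGAATG in the former, and the reverse complements of CGATA and of CAGGTA, the element of the early embryonic activator Zelda, in the latter.
kibra signal 119.9: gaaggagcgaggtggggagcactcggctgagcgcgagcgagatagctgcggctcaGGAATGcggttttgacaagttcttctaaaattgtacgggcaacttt
kibra signal 199.9: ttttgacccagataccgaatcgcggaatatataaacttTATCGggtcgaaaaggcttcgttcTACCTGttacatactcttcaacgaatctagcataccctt

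The Fat-branch members ft, ds and fj had 1 peak each, as did sd, and none lay inside the long bodies of ft and ds. This does not extend to the branch as a whole, as the 6 further Fat-branch genes had a median of 3.5 peaks. At ft (2L, 4198404 to 4221796, minus strand) the peak (4224100 to 4224479, signal 140.5) was intergenic, 2494 bp upstream of the start site. It was in the conservative list but in neither own list, with 45.5 and 84.0 in the ranked lists of replicates 1 and 2. At ds (2L, 640013 to 714983, minus strand) the peak (715343 to 715722, signal 195.6) lay 550 bp upstream of the start site. Replicate 1 had it at 107.0, at place 1886 of its own list, and replicate 2 had no peak there in its ranked list, whose nearest summit was 2179 bp away. Both sequences are shown, on the plus strand, as the main-list sites of these cadherin genes, with the reverse complement of CAGGTA in capitals at ft (chr2L:4224240-4224340) and no motif at ds (chr2L:715483-715583).
ft upstream: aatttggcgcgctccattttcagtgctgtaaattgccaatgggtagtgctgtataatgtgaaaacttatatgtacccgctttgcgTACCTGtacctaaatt
ds upstream: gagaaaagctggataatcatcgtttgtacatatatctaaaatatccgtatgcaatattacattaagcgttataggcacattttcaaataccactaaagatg

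Replicate 2's ranked list was sparse across ds. Of ranked peaks, which include sites far weaker than the threshold, replicate 1 had 66 in the ds window and replicate 2 had 12. The ratio of 0.182 was at percentile 0.8 of 9788 protein-coding genes with at least 20 ranked peaks, whose median was 1.5. In replicate 2 the longest stretch without a ranked summit in this window was 37260 bp, against 9922 bp in replicate 1. Stretches of at least 20000 bp took up 29.2% of the main arms in replicate 2 and 12.9% in replicate 1. At sd the counts ran the other way, with 11 and 41, a ratio of 3.73 at percentile 96.4. The cause of these differences was not tested.

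At fj (2R, 18232761 to 18236311, plus strand), a gene with 1 exon, the peak (18232644 to 18233023) stood 73 bp downstream of the start site and had a signal of 96.2. It was in neither own list nor in the conservative list, with 32.9 in the ranked list of replicate 1 and no peak in that of replicate 2.

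**Figure D2:**
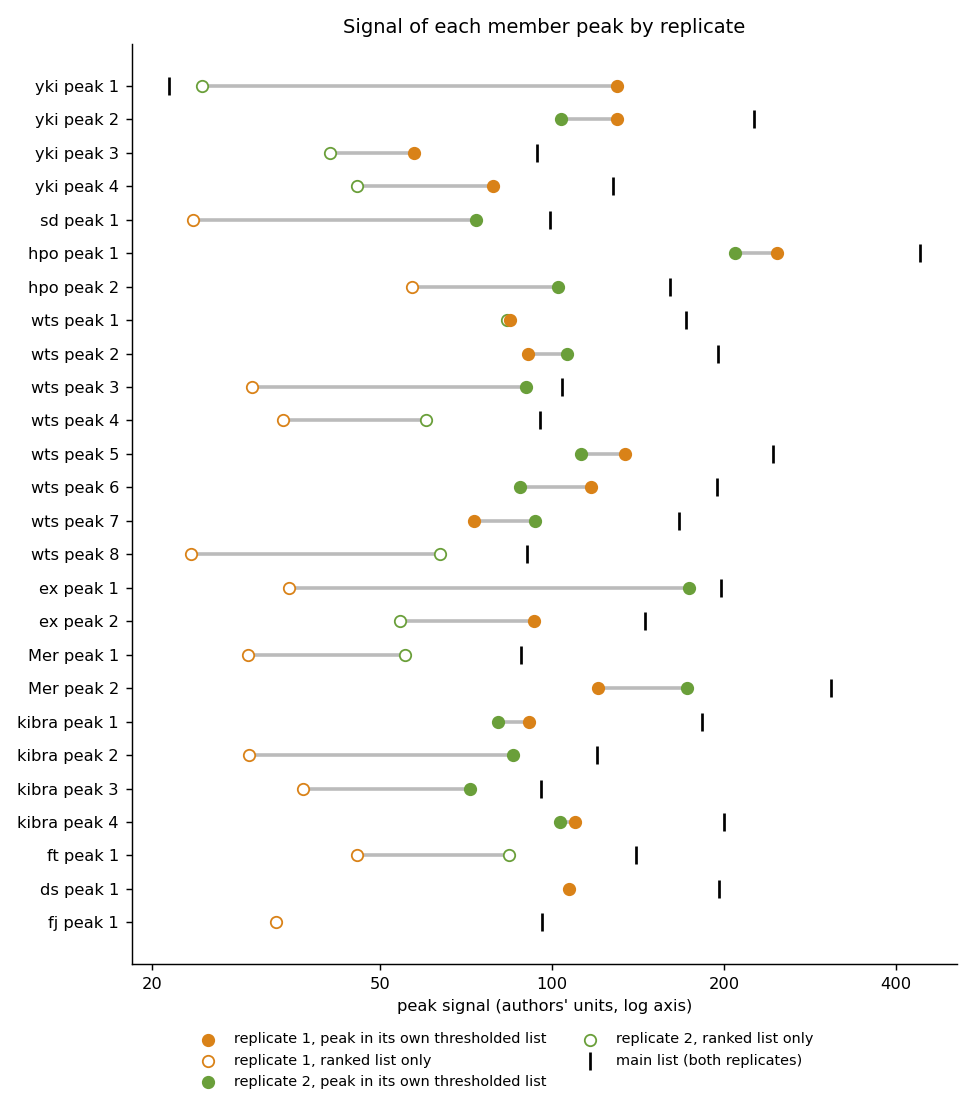
Signal of the 26 member peaks by replicate. The horizontal log axis gives peak signal in the authors' units; circles show the peak of each replicate with the nearest summit, filled where that peak passed the threshold of its own list, and black ticks the main list. At hpo peak 1 the replicates lie at 247.5 and 209.0, at ex peak 1 they lie at 34.6 and 173.8, and ds and fj have no circle for replicate 2.

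Across the 26 peaks, 10 overlapped a peak of both own lists, a share of 38.5% against 43.4% over the main list. These were at yki, hpo, wts, Mer and kibra, and none was at sd, ex, ft, ds or fj. They include the weak yki peak, which overlaps its neighbour's peak in each. A further 5 overlapped replicate 1's own list alone and 6 that of replicate 2 alone. The other 5 were in neither (19.2%, against 21.7% over the main list), and the conservative list overlapped 14. No share over the main list is given for overlap with 1 replicate alone or with the conservative list, so those counts are description only. Where both ranked lists held the peak, at 24 sites, 11 were higher in replicate 1 and 13 in replicate 2, with a median ratio of replicate 2 to replicate 1 of 1.22 and a range of 0.188 to 5.02. The lowest ratio is that of the weak yki peak that shares its replicate 1 peak with a neighbour.

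Main-list signals were close to the sum of the replicates' signals. At 23 of the 24 sites the main-list value was between 0.868 and 1.08 times that sum, the exception being the same weak yki peak at 0.139. At ds the main-list value of 195.6 exceeded the 107.0 of replicate 1 by 88.6, and at fj 96.2 exceeded 32.9 by 63.3, although replicate 2's ranked list had no peak at either site.

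Counted by gene, 7 members had a peak of replicate 1's own list in their window, against 50.1% of protein-coding genes, and 7 had one of replicate 2's, against 49.6%. The members with a peak in both lists numbered 6, namely yki, hpo, wts, ex, Mer and kibra, against 42.3%; at ex the peaks were different ones. Within 1000 bp of a start site of their own, 7 of the 10 had a main-list peak, against 32.9% of protein-coding genes. In both own lists this held for 3, yki, hpo and Mer, against 19.0%. At yki the peak was nearer to Gpat4. None of the shares in this paragraph is matched for gene length, and the median body was 17235 bp for members and 2166 bp for protein-coding genes.

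**Figure D3:**
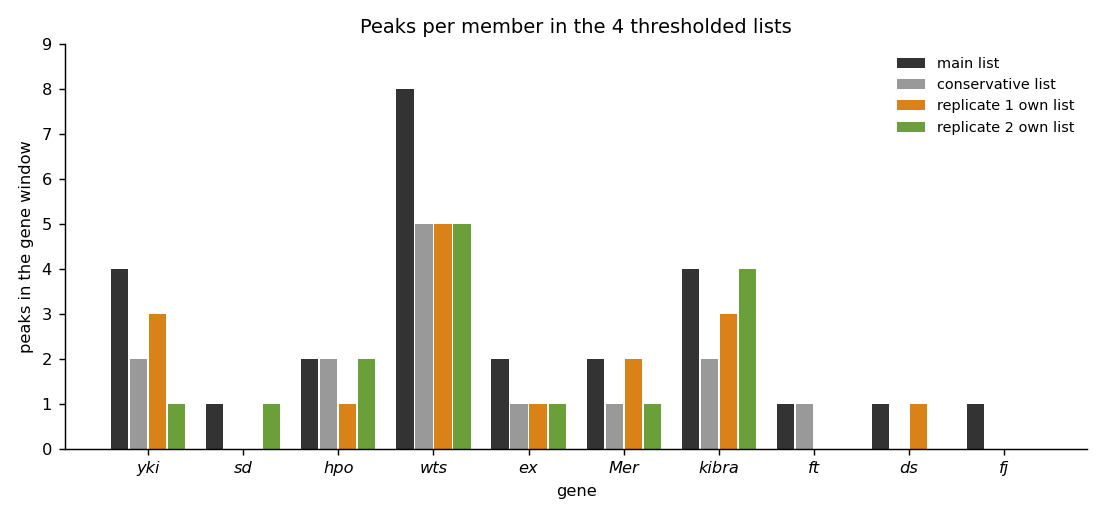
Peaks in each member's window in the thresholded lists. Bars start at 0 and give the number of peaks in the main list, the conservative list and each replicate's own list; wts has 8, 5, 5 and 5, and fj has 1 in the main list alone.

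Of the 26 summits, 13 were within 1000 bp of a start site of any gene (the main-list share was 63.0%). At 8 of these a start site of the member itself was within 1000 bp, and at 5 only a neighbour's was. The 8 include 2 yki peaks that were nearer to a start site of Gpat4. Of the other 13, 10 were in introns, 5 of them in wts, 4 in kibra and 1 in ex. A protein-coding start site nearest to the summit belonged to the member at 15 of the 26 and to another gene at 11. The farthest summit inside the flank of 5000 bp was the Cdc42 peak 4250 bp from the Mer body, and the nearest outside were a peak of 96.8 at 5261 bp from kibra and a peak of 180.0 at 5583 bp from yki, 14 bp downstream of the nearest RpL12 start site.

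At least 1 of the 8 motifs searched on both strands lay within 50 bp of 13 of the 26 summits. No main-list share was taken for this count. The core of the Sd site, GGAATG, was at 2 of 26 summits (7.69%, against 3.54% of all 7001 main-list summits on the main arms), in wts intron 1 and kibra intron 1. Widening the search to 100 bp gave 5 summits (19.2%, against 7.07%), with additional ones at the Rap2l and RpL39 peaks beside yki and downstream of wts. The core of the odd-skipped family motif, CAGTAGC, was at 0 of 26 summits within 50 bp, against 0.743% of all. Within 100 bp it was at 2 (against 1.57%), 86 bp from the wts summit of 95.4 and 79 bp from the ex start-site summit. TATCGATA, an element of the promoter factor DREF, was at 1 summit (3.85%, against 2.51%), at Rap2l beside yki, where it also counts as CGATA.

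The motif CGATA was at 7 summits (26.9%, against 18.6%), 3 of them in kibra, and the repeat CACACA at 5 (19.2%, against 9.24%), of which 3 were in wts introns. The GAGA factor element GAGAG was at 3 (11.5%, against 12.4%), the Zelda element CAGGTA at 2 (7.69%, against 1.93%), at ft and kibra, and the E-box CACGTG at 1 (3.85%, against 1.16%), downstream of wts. Counts this small give shares that shift with each summit, and no test was made. The median G and C content over the 101 bases at a summit was 41.6% for the members, with a range of 26.7% to 59.4%, and 38.6% over the main list.

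The other genes of the pathway also carried peaks in most cases. Of 40 further genes listed by role, 36 had a main-list peak in their window, with a median of 3 peaks, 27 had one within 1000 bp of a start site of their own, and 28 had a peak in both own lists. The background shares over protein-coding genes are those given above, 61.0%, 32.9% and 42.3%, and they are not matched for gene length. Many of the 40 genes are long, up to 132008 bp at hth. For protein-coding genes of at least 15000 bp the first share was 75.9%, and the other shares were not taken for that length. The 40 also include mir-ban, which is not protein-coding. The 4 without a main-list peak were RASSF8, the Fat-branch gene lft, the STRIPAK gene Mob4 and Wbp2, whose product binds Yki.

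The signals given by role are the highest in a gene's window, at a start site or not. Among 12 upstream kinases and adaptors, 11 had a peak. The highest were at the salt-inducible kinase gene Sik3 (323.5), at msn, whose kinase acts on Wts beside Hpo, with 11 peaks (292.4), and in the window of sav (244.0), the Hpo scaffold, whose own start-site peak had 91.9. In the Fat branch 5 of 6 had a peak, led by app, a palmitoyltransferase gene (351.4, 8 peaks), dco, the casein kinase gene (236.2), and dachs, the unconventional myosin downstream of Fat (218.0, 4 peaks, none at its start site). All 6 apical-basal polarity genes had a main-list peak, with scrib at 425.4, dlg1 at 369.6 and crb, which recruits Ex, at 269.8. In both own lists 4 of the 6 had one. The lowest, l(2)gl, had 1 peak of 81.7, not at its start site, and none in either own list. At sdt replicate 1's own list held no peak. The main-list share was 61.0% of protein-coding genes and 75.9% from 15000 bp up, a length that all but l(2)gl reached. For both own lists it was 42.3%.

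Of the STRIPAK phosphatase complex, which removes the activating phosphate from Hpo, 3 of 4 had a peak, and that of mts, the catalytic subunit of PP2A, had the highest signal of all 50 pathway genes at 479.8. Cka, the striatin subunit, had 281.8 and Strip 205.7. The nuclear partners of Yki and Sd had 5 of 6, with hth at 426.6, E2f1 at 314.9 and mask at 306.1; at hth that peak was not at a start site of its own, where the highest was 110.0. All 6 further reported Yki targets had a peak in the main list and in both own lists, against 61.0% and 42.3% of protein-coding genes. They were led by the apoptosis inhibitor gene Diap1 at 461.6 with 7 peaks and the glypican gene dlp at 398.2. The window of the bantam microRNA gene, mir-ban, had 297.3. The members ex and fj, also reported to respond to Yki, are not among the 6. Their own lists held different peaks at ex and none at fj.

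**Figure D4:**
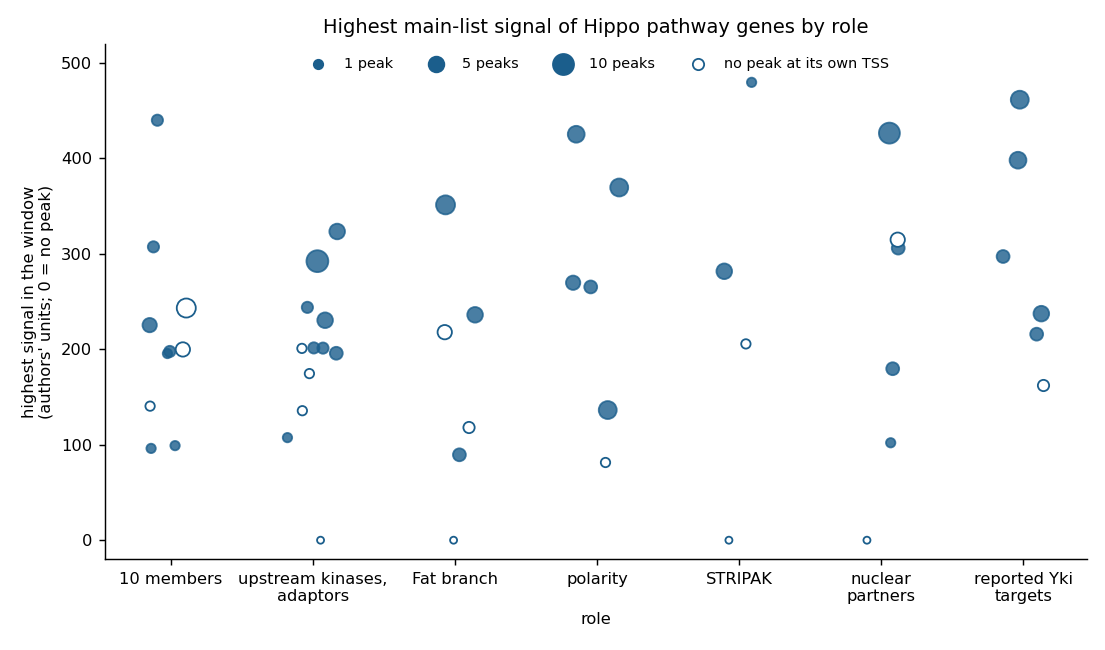
Highest main-list signal in the window of each Hippo pathway gene. Columns give the 10 members and the 40 other genes by role, with points spread sideways for legibility; point size follows the number of peaks, open circles have no peak within 1000 bp of their own start site, and 0 stands for no peak. The highest point is mts at 479.8, and 4 genes lie at 0.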

How the data were processed

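Sob-eGFP binding was measured in 2 replicates, and 8 peak lists on dm6 were used. According to the deposited file lists, an irreproducible discovery rate (IDR) procedure was applied to the peaks. The main (7002 peaks) and conservative (4929) lists came from both replicates' alignments with a control, and own lists (4490 and 4626) from 1 replicate each. No aligner or peak caller is named in the sources used here. The deposited signal is the authors' value per peak over a control. The deposited score is the IDR scaled to 1000; every thresholded list ended at 830 and each of its peaks was found in its ranked list at an IDR of 0.01 or lower. The deposited −log10 values are a q-value per peak and, in ranked lists, the global IDR. Depth is unknown, so no interval is given.

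Gene models were those of Ensembl release 115 (annotation 6.54) and sequence came from RefSeq's copy of release 6; every peak on the 6 main arms ended within the arm. Transposable elements were left out. Distances run from the summit to a transcription start site (TSS), negative upstream, and positions count from 1. A replicate's peak was matched to a main-list peak by an overlap of at least 1 bp, taking the nearest summit. Of the listed pathway symbols, 2 were matched through newer symbols (dachs and RASSF8). The named genes were all members with every peak, up to 3 genes per role with the highest signal, genes with no peak, genes nearest to a member peak, and the 3 genes most like the member with most peaks; RpL12 was named after its value was seen. The members and lists were chosen with earlier results of these data known. Python 3.11.15 and pandas 2.3.3 were used, and assignment was tested on simulated positions. Alternatives were other lists, flanks, promoter widths, overlap rules and motif windows.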

Additional observations from a re-analysis of the deposited data

How the results depend on the processing

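The number of members with a peak was 7 to 10 with other lists or with flanks of 2000 or 10000 bp (10 in the main list), and 6 with the gene body alone, where yki, hpo, ft and ds had none; the conservative list left out sd, ds and fj. Without a replicate, which here means the other's own list, 7 members had a peak. The 26 member peaks became 14 in the conservative list, 15 among the stronger 50%, 13 in gene bodies alone, and 15 to 16 without a replicate. Those at promoters, 13 in the main list, became 6, 7 and 3, and 6 to 8 without a replicate; other promoter widths and start sites of protein-coding genes alone gave 11 to 13. Members with a peak at their own start site, 7, became 3 in the conservative list (yki, hpo and Mer), and 4 to 5 without a replicate: sd and ex rest on replicate 2, ds on replicate 1 and fj on neither. Peaks found in both own lists, 10, became 6 when 50% of both peaks had to overlap. Summits with any of the 8 motifs, 13 within 50 bp, were 6 within 25 bp and 23 within 100 bp, as windows of those sizes hold fewer or more positions. Of 40 recounts of single members' peaks, 27 moved by more than 1.5 times. The count of other pathway genes stayed within 1.5 times, at 25 to 40. No paired analysis was possible because there is 1 group. Peaks absent from an own list differed in how far they were from the IDR threshold of 0.01: in replicate 2 the ranked IDR was 0.0102 at the intronic ex peak and 0.0103 at ft, in replicate 1 it was 0.769 at the ex start site and 0.889 at the wts peak in zfh1, and replicate 2 had no ranked peak at ds.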
